A study of Homo sapiens with 6 samples.

Results

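The ZNF genes are the genes whose symbol is ZNF followed by a number, the largest named group of human zinc finger genes. They were taken as every transcription start site (TSS) of the deposited anti-TY read density tables whose gene symbol starts with ZNF and a digit. This gave 139 genes, 1 TSS each, of the 3000 TSSs in the tables, or 4.63%. The study measured where the protein CFAP20 sits on chromatin, by chromatin immunoprecipitation and sequencing (ChIP-seq) with an antibody against the TY peptide tag. All cells were RPE1, an immortalised human retinal pigment epithelial line, of the background labelled RPE1 iCas9 p53/puro-dKO, and all were untreated. The 3 WT samples had no tagged protein and give the antibody's background. The 3 TY-CFAP20 samples were CFAP20-KO cells to which TY-CFAP20 had been added back. How it is driven, and whether the cells are 1 clone, is not stated in the labels. Each group was deposited as 1 average over its 3 samples, so every value below is 1 group average, no difference has a replicate check, and no test or p-value is given.

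Most ZNF proteins carry an array of C2H2 zinc fingers, in which each finger holds a zinc ion and contacts a few bases of DNA. Many also carry a KRAB domain, which recruits the corepressor TRIM28 and, through it, enzymes that deposit repressive chromatin marks, often on transposable elements. The family grew by tandem duplication, and its genes lie in clusters, above all on chromosome 19. CFAP20 is a small conserved protein first known from cilia and flagella, and the series title places it in transcription and replication in the nucleus.

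Of the 139 ZNF genes, 64 lay on chromosome 19, which was 46.0% of them against 4.40% of the other 2861 TSSs. They made up 33.7% of the 190 chromosome 19 TSSs in the tables. The rest were spread over other chromosomes, 17 in all with chromosome 19, and 14 of them lay on chromosome 7. By GENCODE type 137 were protein coding. The other two, ZNF252P-AS1 and ZNF561-AS1, are antisense RNA genes that only share the symbol. The TSS lay in an exon of the gene for 112 members, in an intron for 9, in an exon of another gene for 2 and outside annotated genes for 16. It was within 100 bp of an annotated start for 131. The authors listed 9944 TSSs, of which 224 were ZNF. The other 85 ZNF TSSs have no density here, 30 of them without a value for nascent transcription (BrU-seq) and 55 with one. The lowest BrU-seq value in the density tables was 0.693 and the highest outside them 0.690. The 139 are thus the more transcribed of the listed ZNF TSSs that have a BrU-seq value. ZNF genes outside the authors' list cannot be placed.

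The sequences just upstream of the TSS are shown because some promoters of neighbouring ZNF genes share short words that most other promoters lack. Among the ZNF promoters of chromosome 19, CCAATGAG was found only at 51 to 59 Mb and CCAATCAG only below 51 Mb, each in a minority. Each line gives the 120 bases that end at the base before the authors' TSS, 5′ to 3′ on the gene's strand, from hg38. Capitals mark CCAAT or its reverse complement ATTGG, the ETS-type word CTTCCGG, and ACTACA followed after any 3 bases by CCCAG. The first 3 promoters are from chromosome 19 between 51 and 59 Mb, at chr19:57599765-57599884 (+), chr19:57746676-57746795 (+) and chr19:57727625-57727744 (-).
ZNF530: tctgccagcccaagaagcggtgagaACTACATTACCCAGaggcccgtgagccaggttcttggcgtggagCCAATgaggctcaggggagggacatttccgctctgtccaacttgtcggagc
ZNF776: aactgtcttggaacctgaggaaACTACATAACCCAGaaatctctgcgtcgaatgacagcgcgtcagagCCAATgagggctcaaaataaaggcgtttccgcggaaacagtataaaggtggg
ZNF671: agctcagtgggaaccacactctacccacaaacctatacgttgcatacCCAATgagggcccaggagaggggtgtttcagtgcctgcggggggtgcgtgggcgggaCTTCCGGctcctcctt

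The next 5 promoters are from chromosome 19 below 51 Mb, at chr19:11597300-11597419 (+), chr19:12162944-12163063 (+) and chr19:21358810-21358929 (+), from chromosome 7 at chr7:65373679-65373798 (+), and from chromosome 1 at chr1:247104373-247104492 (-).
ZNF627: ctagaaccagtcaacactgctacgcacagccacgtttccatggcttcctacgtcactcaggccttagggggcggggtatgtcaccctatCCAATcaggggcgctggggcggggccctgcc
ZNF136: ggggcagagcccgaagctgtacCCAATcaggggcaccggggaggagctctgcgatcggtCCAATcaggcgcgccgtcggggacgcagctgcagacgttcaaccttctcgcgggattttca
ZNF738: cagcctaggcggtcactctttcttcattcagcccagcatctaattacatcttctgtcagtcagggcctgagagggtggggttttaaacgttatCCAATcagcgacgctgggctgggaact
ZNF92: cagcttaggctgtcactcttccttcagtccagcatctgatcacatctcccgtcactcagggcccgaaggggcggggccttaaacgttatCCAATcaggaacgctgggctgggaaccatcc
ZNF669: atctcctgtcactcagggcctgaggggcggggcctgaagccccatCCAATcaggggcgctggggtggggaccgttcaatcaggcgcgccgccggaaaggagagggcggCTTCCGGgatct

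In the 3 promoters from 51 to 59 Mb the CCAAT word runs on as ccaatgag, and in the other 5 it runs on as ccaatcag. The printed promoters were chosen after the sequences had been seen, so this split is an illustration and not a count. Most ZNF promoters of either part of chromosome 19 hold neither form, as counted below. ZNF92 on chromosome 7 and ZNF738 on chromosome 19 both hold the stretch aacgttatCCAATcag and then gctgggctgggaac, so the likeness crosses chromosomes. The words were counted in the 300 bases from 250 before to 50 after every TSS, on both strands. CCGGAAG, the core bound by ETS factors, was present in 57 of the 139 ZNF promoters (41.0%), in 400 of the other 2861 and in 15.2% of all 3000. The share was 58.6% in the ZNF genes at 51 to 59 Mb, 37.1% in those of chromosome 19 below 51 Mb, 36.0% in those outside chromosome 19, and 11.1% in the other promoters of chromosome 19. CCAAT was present in 46.0% of ZNF and 35.8% of other promoters.

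CCAATCAG, which contains CCAAT, was present in 23 ZNF promoters (16.5%), 4.68% of other promoters and 5.23% of all. It was in 14 of the 35 ZNF promoters of chromosome 19 below 51 Mb and in 0 of the 29 at 51 to 59 Mb. In all 23 ZNF promoters it read in the direction of the gene, whereas in the other promoters it read in the gene's direction in 66 and against it in 68. Over the 40 bases around the word, 20 on each side, the ZNF promoters that held it shared a median of 42.5% of positions with each other, against 27.5% between other promoters that held it. The 4 that lay on chromosome 7 shared 81.3%. CCAATGAG was in 4 ZNF promoters (2.88%), a share close to the 2.57% of all promoters. All 4 were among the 29 at 51 to 59 Mb. ACTACA followed after 3 bases by CCCAG was in 14 ZNF promoters (10.1%), of which 6 lay at 51 to 59 Mb and 7 on the rest of chromosome 19, against 2.10% of all promoters. GGGCGG, the GC box, was in 67.6% of ZNF and 59.8% of other promoters, and TATAAA in 5.76% and 8.42%. A match to these letters is a description of the sequence and not a bound site.

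The deposited densities were whole multiples of a few steps. If each step stands for a single fragment, the coverage behind a position in the 1 kb around ZNF start sites was about 7.91 to 32.8 fragments for the WT average. For the TY-CFAP20 average it was then 7.55 plus 8.86 to 13.3. No source says how the steps relate to fragments or to the libraries. As a check of the cell label, OTX2 and MITF, transcription factors of the retinal pigment epithelium, were in the density tables with BrU-seq values of 10.1 and 1.40. RLBP1, a visual cycle gene, was at 0.235, and RPE65, another, was listed without a value. Of markers of other lineages, the lung gene SFTPB was also in the density tables at 0.853, the liver gene ALB was at 0.0192 outside them, CD3E and NEUROD1 were listed without a value, and PTPRC and MYOD1 were not listed. BEST1, TYR, PMEL, SERPINF1, KRT8 and KRT18 were not among the listed TSSs.

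At most ZNF start sites the TY-CFAP20 signal was above the untagged background, by an amount that varied with place. It was low or absent in the last stretch of chromosome 19, where other genes were low too, and in a cluster on chromosome 7. In the cluster at 14 to 27 Mb on chromosome 19 it was below that of other genes, by a gap that narrowed when flanks set the scale. Taking the mean density within 500 bp of each TSS, the median over the 139 genes was 1.18 for TY-CFAP20 and 0.765 for WT. The median difference (TY-CFAP20 minus WT) was 0.426, with quartiles of 0.106 and 0.787. Over the other 2861 TSSs the medians were 1.40 and 0.783 and the median difference 0.576. In 114 ZNF genes (82.0%) TY-CFAP20 was the higher average, against 91.2% of all 3000 TSSs. In 42 (30.2%) it was at least 1.5-fold higher after a pseudocount of 0.668, the median WT flank, had been added to both averages, against 34.9% of all TSSs. In 2, ZNF146 and ZNF441, it was at least 2-fold higher on that scale, against 1.77%. In 25 (18.0%) it was lower, against 8.67%, and in none was it 1.5-fold lower with the pseudocount. Without a pseudocount ZNF805, ZNF777, ZNF773 and ZNF468 were that much lower, with ZNF805 at 0.433 in TY-CFAP20 and 0.853 in WT.

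**Figure D1:**
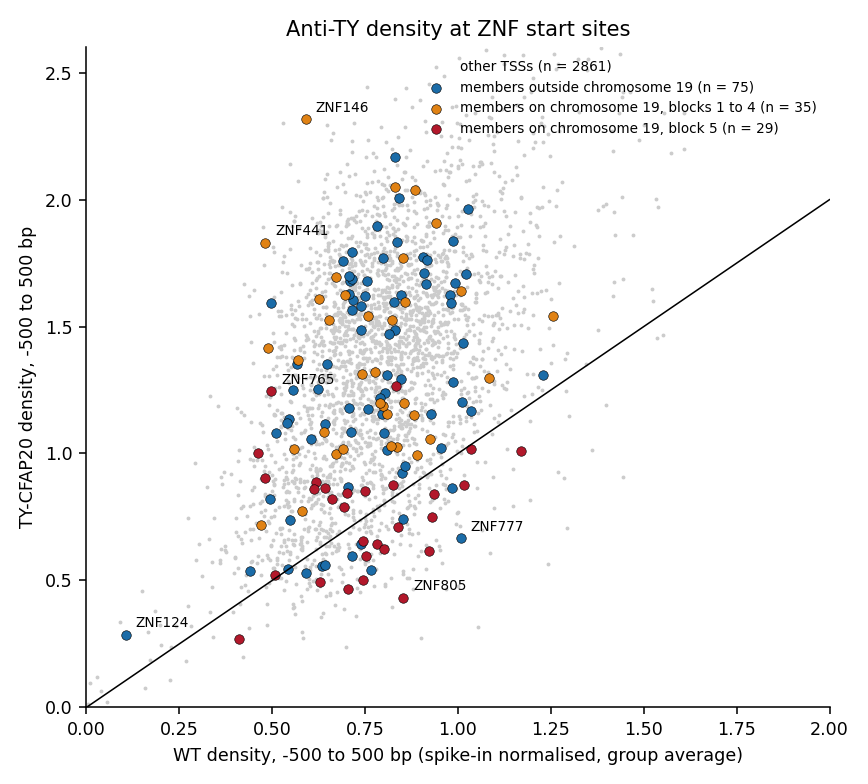
Each point is a TSS, with the mean density within 500 bp in WT on the x axis and in TY-CFAP20 on the y axis, both spike-in-normalised group averages. Coloured points are the 139 ZNF genes by place, grey points the other TSSs, and the line marks equal density; 24 other TSSs lie outside the axes. The ZNF genes of chromosome 19 at 51 to 59 Mb (block 5) lie on either side of the line, 13 above and 16 below it, and all 35 of the rest of chromosome 19 (blocks 1 to 4) lie above it.

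No replicate spread is at hand, so the flanks serve as a yardstick of how much the difference varies away from a gene's own TSS. They are the outermost 1 kb on each side of the 10 kb window. Other TSSs were not screened out of them. ZNF394, with another listed TSS 4354 bp away, had the highest TY-CFAP20 flank of the members, 1.41. Over the 278 flank windows of the ZNF genes the SD of the difference was 0.233, and it was 0.164 within a gene. These windows are as wide as the TSS window and carry the same averages, but they measure variation along the genome and not between samples. They bear on single genes and not on the median of a group.

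The 64 genes on chromosome 19 fell into 2 kinds by position. The 35 below 51 Mb had a median of 1.32 in TY-CFAP20 and 0.789 in WT, a median difference of 0.545, and all 35 were higher in TY-CFAP20. The 29 between 51 and 59 Mb had a median of 0.821 in TY-CFAP20 and 0.744 in WT, a median difference of -0.0874, and 13 were higher and 16 lower. WT thus differed little between the 2 stretches, and TY-CFAP20 was the average that was low. The 75 ZNF genes outside chromosome 19 had medians of 1.29 and 0.781 and a median difference of 0.580, with 66 higher. Outside the last stretch, 101 of 110 ZNF genes (91.8%) were higher in TY-CFAP20, against 91.2% of all TSSs, and 41 (37.3%) at least 1.5-fold, against 34.9%.

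The low values of the last stretch were not limited to the start sites or to ZNF genes. In the flanks of the 29 genes TY-CFAP20 had a mean density of 0.383 and WT of 0.583, which is a ratio of 0.657, and 27 of 29 had the lower flank in TY-CFAP20, against 28.4% of all TSSs. The flank ratio was 1.17 at the 35 genes of the rest of chromosome 19, 1.06 at those outside it and 1.15 at the other 2861 TSSs. The 10 other TSSs between 51 and 59 Mb had a flank ratio of 0.697, a median difference of -0.141 at the TSS, and 2 of 10 higher in TY-CFAP20. A density below that of the untagged cells over a whole stretch, flanks included, moves with each difference measured in it. Its part in those differences was not tested.

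**Figure D2:**
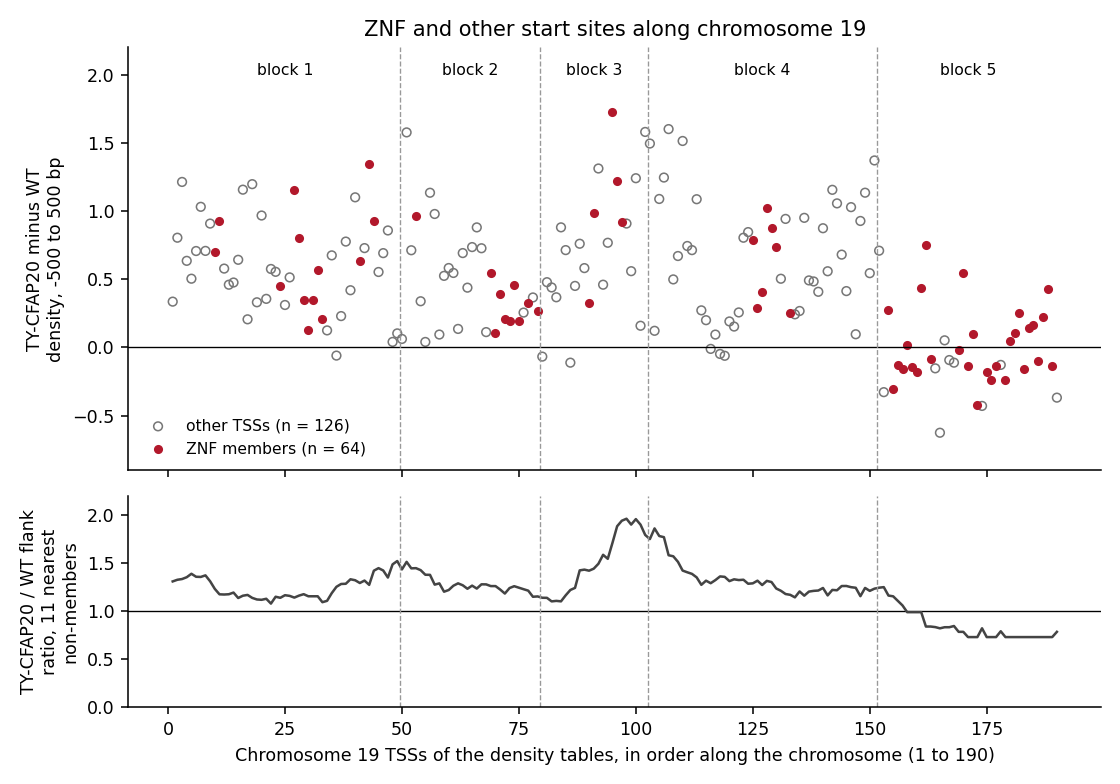
The upper panel gives, for the 190 TSSs of chromosome 19 in order along it, the difference TY-CFAP20 minus WT within 500 bp, with ZNF genes filled and others hollow; dashed lines bound blocks 1 to 5 (0 to 14, 14 to 27, 27 to 39, 39 to 51 and 51 to 59 Mb). The lower panel gives the ratio of TY-CFAP20 to WT flank density over the 11 nearest TSSs that are not ZNF genes. In block 5 the ratio falls from above 1 at its first ZNF genes (1.16 at ZNF175) to 0.731 at its last, ZNF324B. The ZNF genes there lie around 0, with a median of -0.0874.

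Relative to the flanks, the ZNF start sites of the last stretch were as high as elsewhere by ratio. By difference they were lower with own flanks subtracted and with the flanks of TSSs that are not ZNF genes. Scaled by the 11 TSSs around each gene, they lay between the other groups. Divided by the flank ratio, the ratio of mean TY-CFAP20 to mean WT density at the TSS was 1.57 there, 1.54 in the rest of chromosome 19, 1.58 outside it and 1.495 at the other 2861 TSSs. After each TY-CFAP20 value was divided by the flank ratio of the 11 TSSs around it (local scaling below), the median difference of the 29 genes was 0.393 and 26 were higher. With the flank ratio taken from the 11 nearest TSSs that are not ZNF genes it was 0.186 with 21 higher. The stretch holds only 10 such TSSs, so these 11 reached below 51 Mb. Their ratio was 1.16 at ZNF175, the first of the 29, and 0.731 at ZNF324B, the last. With each gene's own flanks subtracted the median difference of the 29 was 0.202 with 22 higher. Own-flank subtraction gave 0.464 in the rest of chromosome 19, 0.524 outside it and 0.470 at the other 2861 TSSs. The size of the median difference at these 29 genes thus depended on which flanks set the scale, and its sign was positive under all 3. At the 10 other TSSs of the stretch the 3 medians were lower, at 0.0932, -0.0329 and 0.0472 in the same order. Their ratio at the TSS divided by the flank ratio was 1.18. Under local scaling the medians were 0.302 on chromosome 19 below 51 Mb, 0.435 outside it and 0.388 at the other 2861 TSSs. With the flanks of TSSs that are not ZNF genes they were 0.258, 0.423 and 0.390 in the same order. Under local scaling 124 of all 139 genes (89.2%) were higher, against 87.6% of all TSSs. The 15 that were lower (10.8%) stand against 12.3% of all TSSs.

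**Figure D3:**
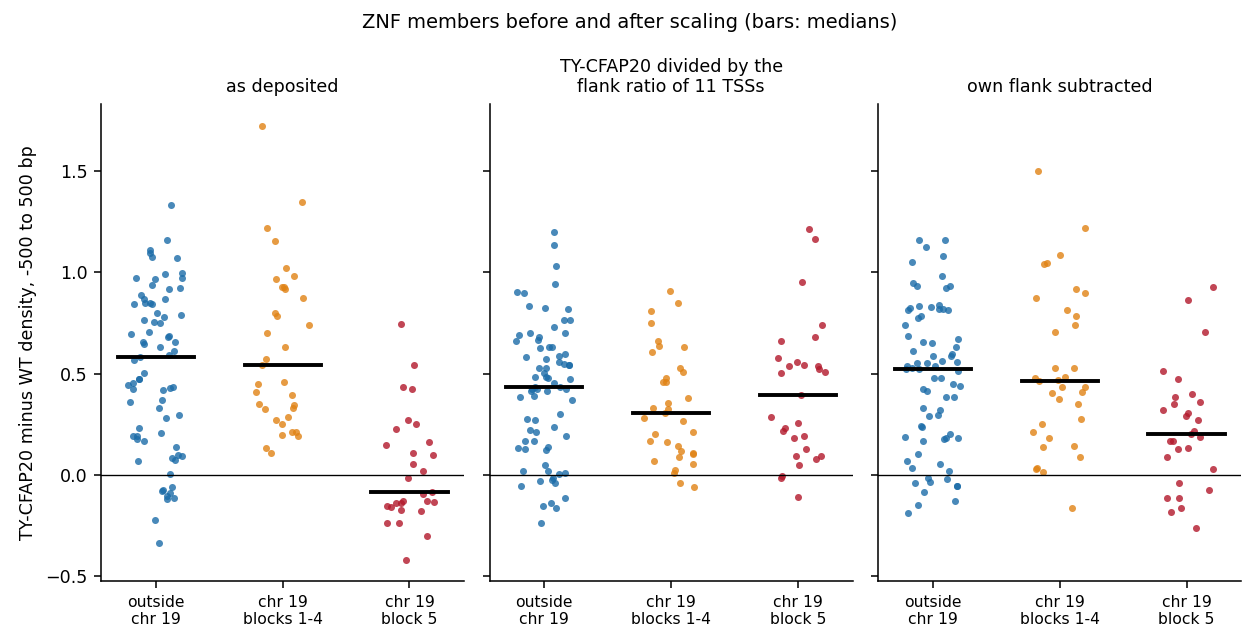
Each point is a ZNF gene and each bar the group median of TY-CFAP20 minus WT density within 500 bp, as deposited (left), with TY-CFAP20 divided by the flank ratio of the 11 TSSs around it (middle) and with each gene's own flanks subtracted (right). The median of the 51 to 59 Mb genes (block 5 of chromosome 19) is -0.0874, 0.393 and 0.202 in the 3 panels.

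The shape of the mean profile also set the last stretch and the rest apart in height but not in place. The difference had its summit at -20 bp (0.974) on chromosome 19 below 51 Mb, at -50 bp (0.825) outside chromosome 19 and at -30 bp (0.256, from a flank of -0.200) at 51 to 59 Mb. At the other 2861 TSSs the summit was 0.782, at -10 bp. The ZNF peak was narrower on the downstream side. It stayed above its mid-height from -270 to 340 bp over all 139 genes, against -310 to 500 bp at the others. From 500 to 1000 bp downstream the mean difference was 0.119 at ZNF genes and 0.337 at others, and from 500 to 1000 bp upstream 0.0830 and 0.189. Without the 51 to 59 Mb genes these were 0.203 downstream and 0.155 upstream.

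**Figure D4:**
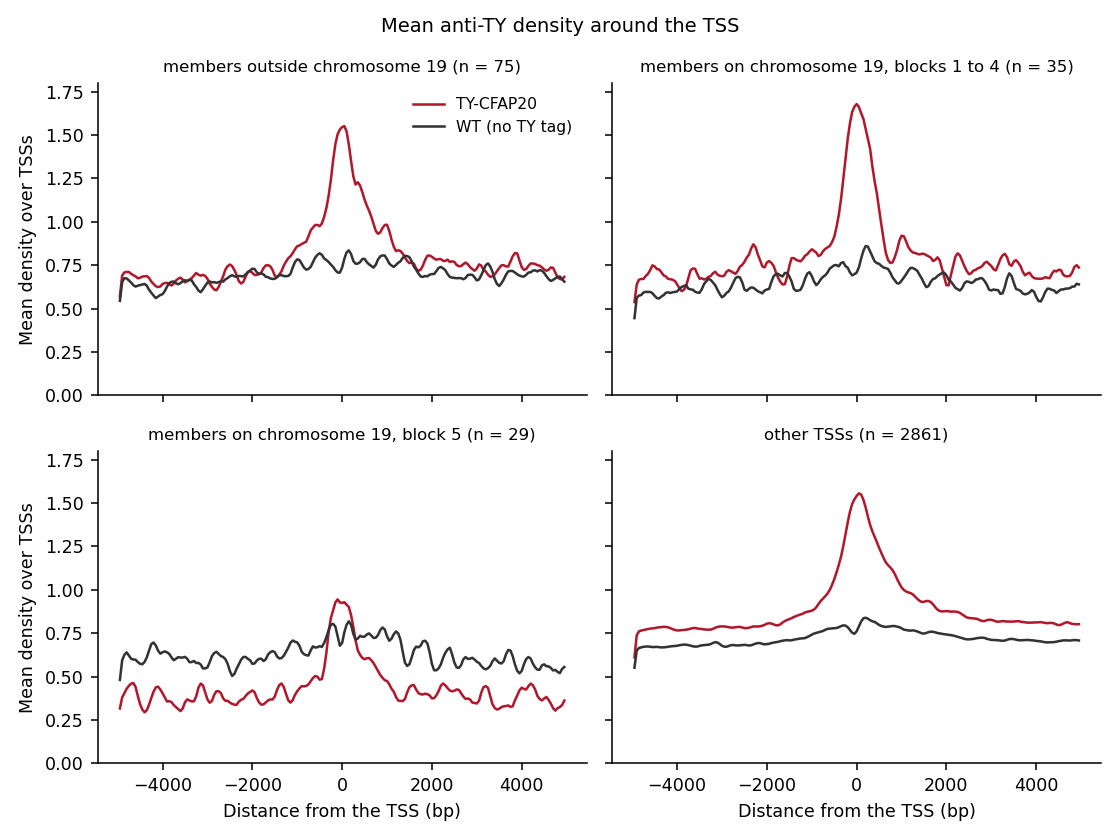
Mean spike-in-normalised density over the TSSs of each group against the distance from the TSS in bp, with TY-CFAP20 in red and untagged WT in black, smoothed over 11 positions of 10 bp. The WT line has a low rise at the TSS, to 1.27 times its flank over the TSS window at 51 to 59 Mb, 1.31 times on the rest of chromosome 19, 1.18 times outside it and 1.17 times at other TSSs. The TY-CFAP20 line peaks at the TSS in each, from a flank of 0.383 that is below WT at 51 to 59 Mb (block 5) and from flanks of 0.688, 0.693 and 0.782 in the others. The dip at the left end is in the deposited values of both groups.

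Along chromosome 19 the ZNF genes were compared in 5 blocks. At 0 to 14 Mb, 13 genes had a median difference of 0.633 and the 36 other TSSs 0.577. ZNF441 was the highest there, at 1.83 in TY-CFAP20 and 0.482 in WT, a difference of 1.35. ZNF414 followed at 2.04 and 0.885. ZNF136, whose promoter with a pair of CCAATCAG words is printed above, was at 1.42 and 0.489. The lowest was ZNF121, at 1.06 and 0.924, a difference of 0.132 that is within the spread of the flanks. So the same block, with genes of 1 family, held differences more than 1 apart.

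At 14 to 27 Mb, the cluster next to the centromere on the short arm, the 10 genes had a median difference of 0.298 and the 20 other TSSs 0.535. Here 9 of the 10 were below the median of their 10 nearest TSSs that are not ZNF genes, and the median gap over all 10 was -0.117. The median gap to those neighbours was 0.0271 in WT density and -0.357 in TY-CFAP20 density, so TY-CFAP20 was the average that differed. ZNF91, which represses SVA retrotransposons, was at 1.03 in TY-CFAP20 and 0.835 in WT. ZNF14, the lowest, was at 0.996 and 0.889, and ZNF333, the highest and farthest from the centromere, at 1.91 and 0.941. After local scaling the block had a median of 0.159, the lowest of the 5, and ZNF14 was at -0.0403.

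At 27 to 39 Mb the 5 ZNF genes had a median difference of 0.985 and the 18 other TSSs 0.570. ZNF146, a protein made almost only of zinc fingers, had the largest difference of all 139, at 2.32 in TY-CFAP20 and 0.590 in WT, or 1.73. ZNF383 was at 2.05 and 0.830, and ZNF599, the lowest of the 5, at 1.02 and 0.690. The flanks here were high in TY-CFAP20, with a ratio of 1.33 at the ZNF genes and 1.52 at the others. Under local scaling ZNF146 came to 0.752, ZNF383 to 0.279 and the block to a median of 0.279. The other TSSs of the block had the higher flank ratio and a median difference close to that of all TSSs, 0.571. The part of the flanks in the ZNF values was not tested.

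At 39 to 51 Mb the 7 ZNF genes had a median difference of 0.738 and the 42 other TSSs 0.614. ZNF226 was the highest, at 1.69 and 0.672, with ZNF227 of the same cluster at 1.53 and 0.652. ZNF296, the lowest, was at 0.720 and 0.471. Of the 7, 6 were above the median of their 10 nearest TSSs that are not ZNF genes, and the median gap over all 7 was 0.240.

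At 51 to 59 Mb the 29 genes ranged from -0.421 for ZNF805 (0.433 in TY-CFAP20 and 0.853 in WT) to 0.748 for ZNF765 (1.25 and 0.498). ZNF765 was the only gene of the 29 that was at least 1.5-fold higher, and ZNF784 (1.00 and 0.461) and ZNF845 (1.27 and 0.834) followed. ZNF614 was at 0.618 and 0.921, ZNF773 at 0.464 and 0.704, and ZNF530, printed above, at 0.502 and 0.744. ZNF274, a KRAB protein that brings the methyltransferase SETDB1 to the ends of other ZNF genes, was higher in TY-CFAP20, at 0.866 and 0.643. After local scaling 3 of the 29 remained lower, ZNF805 at -0.113, ZNF614 at -0.0190 and ZNF468 at -0.00665. Against the 10 other TSSs of the stretch the 29 had a WT median of 0.744 and 0.822, and a TY-CFAP20 median of 0.821 and 0.601.

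Outside chromosome 19, 38 of the 75 ZNF genes lay in 10 clusters and 37 did not, with a median difference of 0.579 in the clusters and 0.580 outside them. The clusters differed among themselves. At 64.6 to 65.4 Mb on chromosome 7, ZNF680, ZNF138, ZNF273 and ZNF92 had a median of -0.0901, with 3 of 4 lower in TY-CFAP20 and a flank ratio of 0.699. ZNF92 was at 0.542 in TY-CFAP20 and 0.765 in WT, and ZNF273 at 0.546 and 0.543. Their median after local scaling was -0.00559. These 4 genes are those whose promoters shared 81.3% of the bases around CCAATCAG, and the same word was in 9 of the 10 promoters of the 14 to 27 Mb cluster on chromosome 19. The 4 other TSSs within 3 Mb had a median of 0.0958.

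At 149.2 to 149.5 Mb on chromosome 7, ZNF282, ZNF212, ZNF783, ZNF777 and ZNF746 also had low flanks, with a ratio of 0.681, and a median difference of 0.229. ZNF777 was the second lowest of the 139, at 0.666 and 1.01, but came to 0.0177 after local scaling. After local scaling the median of the 5 was 0.763, the highest of the 10 clusters. The pair of chromosome 7 clusters thus had like ratios in their own flanks and locally scaled medians of -0.00559 and 0.763. The flank ratio of the 11 TSSs used for that scaling was not alike. It ran from 0.75 to 0.89 in the first cluster and from 0.62 to 0.68 in the second. With own flanks subtracted the differences overlapped, from -0.0161 to 0.180 in the first and from -0.193 to 0.833 in the second.

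The other 8 clusters had medians from 0.423 to 0.869. Chromosome 8 held 11 members, and the 7 at its end had a median of 0.868. ZNF251 was at 2.01 in TY-CFAP20 and 0.842 in WT, ZNF250 at 1.59 and 0.497, and the antisense gene ZNF252P-AS1 at 1.70 and 0.707. ZNF623 in the same cluster was at 0.559 and 0.634, a difference of -0.0753, though its DRIP value (a measure of DNA-RNA hybrids at the TSS, deposited with the tables) was 3645 and the second highest of the members. On chromosome 1 at 247 Mb, ZNF669 was at 1.76 and 0.690. ZNF124 next to it was at 0.284 and 0.107, the lowest WT value of the members. Of the 101 positions of its TSS window, 53 were at exactly 0 in both groups, which no other member showed, so its values rest on part of the window.

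In all, 25 ZNF genes had a lower average in TY-CFAP20 than in WT, 16 of them at 51 to 59 Mb, 0 on the rest of chromosome 19 and 9 outside it. Of the 25, 9 were also lower after local scaling. Against their 10 nearest TSSs that are not ZNF genes, 70 of the 139 were above the neighbours' median and 69 below it, with a median gap of 0.00143 and quartiles of -0.179 and 0.248. Over all 139, ZNF start sites were therefore about as often above these TSSs as below, though the blocks of chromosome 19 differed. Genes that lie close together share many of these TSSs, so the counts are not separate comparisons. The farthest of the 10 lay a median of 4.15 Mb away.

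ZNF genes with a described function in the nucleus or ribosome were looked at as a list of 51 symbols, of which 15 were in the tables. All 15 were higher in TY-CFAP20, against 91.2% of all TSSs, and 9 were at least 1.5-fold higher, against 34.9%. Their median difference was 0.850 against 0.571 over all 3000 TSSs, and 0.582 against 0.389 after local scaling. Of the 15 only ZNF274 lies at 51 to 59 Mb on chromosome 19. Of the 110 ZNF genes outside that stretch 91.8% were higher and 37.3% at least 1.5-fold. Their median difference was 0.570, and 0.420 after local scaling. The list was chosen with earlier results of these data known. Among those that act on RNA or ribosomes, ZNF326, a part of the DBIRD complex that couples RNA polymerase II to splicing, was at 1.83 in TY-CFAP20 and 0.836 in WT. ZNF622, a factor of the large ribosomal subunit's assembly, was at 1.79 and 0.716. ZNF330, a nucleolar protein, was at 1.31 and 0.808.

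Among the transcription regulators of the list, ZNF318 was at 2.17 and 0.830, the highest outside chromosome 19. ZNF24 and ZNF202, which carry a SCAN domain, a dimerisation domain, were at 1.76 and 0.917 and at 1.67 and 0.913. ZNF703, a corepressor amplified in some breast cancers, was at 1.60 and 0.716, and ZNF395 at 1.67 and 0.992. Among those with a role in chromatin or genome stability, ZNF365 was at 1.84 and 0.987 and ZNF618, a partner of UHRF2, at 1.77 and 0.798. ZNF644, a partner of the H3K9 methyltransferases EHMT1 and EHMT2, was the lowest of the 15, at 0.951 and 0.859, a difference of 0.0926 that is within the spread of the flanks and was -0.0577 after local scaling. ZNF91 and ZNF274, given above, were the next lowest. Of the named genes outside this list, ZNF131, a BTB-type zinc finger protein, was at 1.90 and 0.781.

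The corepressor machinery used by KRAB proteins could hardly be read, since 1 of the 29 listed genes was in the tables. This was DNMT1, a maintenance DNA methyltransferase, at 1.65 in TY-CFAP20 and 1.52 in WT. Other zinc finger families were looked at for comparison. Of 26 genes with ZBTB, ZSCAN, ZKSCAN or ZFP symbols, 24 were higher in TY-CFAP20, with a median difference of 0.585. The lowest of them, ZBTB45 at -0.368, also lies on chromosome 19 at 51 to 59 Mb. Of 10 KLF and SP genes, 9 were higher, with a median of 0.730, led by KLF3 at 1.60 and KLF6 at 1.37. These shares of 24 of 26 and 9 of 10 are close to the 91.2% of all TSSs. Without the last stretch the median was 0.570 for the 110 ZNF genes and 0.611 for the 25 ZBTB, ZSCAN, ZKSCAN and ZFP genes.

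Transcription was set beside the signal, with the BrU-seq and DRIP values that the authors deposited for untreated WT cells. The 4 ZNF genes with the highest BrU-seq values were ZNF703 at 57.5, ZNF629 at 32.5, ZNF3 at 24.4 and ZNF7 at 19.7, and their differences were 0.888, 0.800, 0.611 and 0.686. The 2 lowest were ZNF684 and ZNF484, at 0.717 and 0.718, with differences of -0.118 and 0.453. Across the 139 genes the Spearman correlation of the difference with BrU-seq was 0.0470 and with DRIP -0.0502, against 0.172 and 0.137 over the other 2861 TSSs. In the 110 ZNF genes outside the 51 to 59 Mb stretch the correlation with BrU-seq was 0.161 and with DRIP -0.0149. With the locally scaled difference, that with BrU-seq was 0.226 over the 139 and 0.137 over the other TSSs. Genes are not replicates, the averages are shared by all points, and the correlations are given as descriptions. ZNF629, with the highest DRIP value at 4726, was at 1.71 in TY-CFAP20 and 0.910 in WT, and ZNF554, the third at 3296, at 1.53 and 0.822.

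Promoter CpG content had a higher correlation with the difference than BrU-seq over all ZNF genes and outside the 51 to 59 Mb stretch, but not in every part of chromosome 19. Over all 139 it was 0.342 against 0.0470. In the 110 ZNF genes outside the 51 to 59 Mb stretch, the correlation of the difference with the number of CpG in the 300 promoter bases was 0.523 against 0.161 for BrU-seq, and over the other TSSs it was 0.466. From the lowest to the highest of 3 equal groups by CpG count the median difference was 0.280, 0.644 and 0.771, and in the other TSSs 0.272, 0.649 and 0.752. Within the 29 genes at 51 to 59 Mb the correlation was -0.185 for CpG and 0.00936 for BrU-seq. Over the 64 genes of chromosome 19 it was -0.0965 and -0.0981. With the locally scaled difference it was 0.0655 for CpG and 0.303 for BrU-seq over those 64, and 0.420 and 0.226 over all 139. The median count was 22 in ZNF and 22 in other promoters.

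The 23 promoters with CCAATCAG, all outside that stretch, had a median of 14 CpG and a median difference of 0.326. The 87 without it had 23 CpG and 0.644. The order was not the same in every place. At 0 to 14 Mb on chromosome 19 the 4 with the word had a median of 0.926 and 20 CpG, and the 9 without it 0.447 and 19. At 14 to 27 Mb the 9 with it had 0.270, and on chromosome 7 the 4 with it had -0.0901 and the 10 without it 0.402. In the other TSSs the word went with no such gap, at 0.582 with it and 0.576 without, and with no gap in CpG, at 23 and 22. Of the 23, ZNF441 (1.35), ZNF669 (1.07), ZNF136 (0.927) and ZNF77 (0.926) were high and had 20 or 21 CpG. ZNF92 (-0.223), ZNF138 (-0.119) and ZNF680 (-0.0611) were low and had 10, 13 and 14. Others broke that order, with ZNF124 at 0.178 and 24 CpG, ZNF14 at 0.107 and 17, and ZNF572 at 0.580 and 8. Over the 23 the Spearman correlation with the CpG count was 0.416, given as a description of genes that share the libraries. CpG count, the word and the cluster a gene lies in move together in these promoters, and their parts were not tested.

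**Figure D5:**
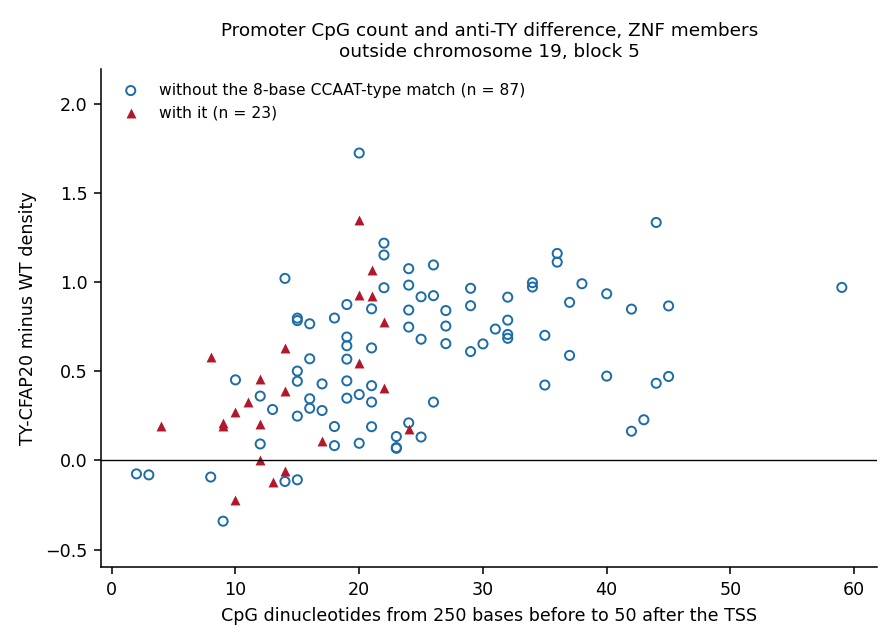
Each point is 1 of the 110 ZNF genes outside chromosome 19 at 51 to 59 Mb, with the number of CpG dinucleotides from 250 bases before to 50 after the TSS on the x axis and the difference TY-CFAP20 minus WT within 500 bp on the y axis. Triangles mark the 23 promoters with the 8-base CCAAT-type match, which lie mostly at low counts (median 14) and have a median difference of 0.326, against 0.644 for the 87 circles.

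Replication origins mapped by OK-seq, also deposited by the authors, were few near ZNF genes. An origin centre lay within 10 kb of 6 ZNF start sites (4.32%) and of 6.68% of the other TSSs, and within 50 kb of 15 (10.8%) and of 19.8%.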

How the data were processed

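Anti-TY ChIP-seq was made from 6 samples, 3 WT and 3 CFAP20-KO + TY-CFAP20. Per the labels' protocols, fixation was by DSG and formaldehyde, and 84 µg of WT or 60 µg of TY-CFAP20 chromatin was mixed with 74 or 53 ng of Drosophila chromatin as spike-in. Per the submitters' processing notes, which give no roles or order, the tools were HOMER 4.8.2, BWA 0.7.17, R 4.0.5, Trim Galore 0.6.5, STAR 2.7.7a and SAMtools 1.11, with hg38. The authors deposited spike-in-normalised signal (read density), 1 average per group, at 1001 positions of 10 bp around 3000 TSSs; how it was scaled is not stated in these sources. These densities and the BrU-seq and DRIP columns are treated as deposited scores of unstated scale. Spike-in scaling and unequal chromatin input act on a whole average, so levels between groups depend on them.

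The density was averaged within 500 bp of the TSS and over the outermost 1000 bp on each side (flank). Folds of at least 1.5 used a pseudocount of 0.668. Local scaling divided TY-CFAP20 by the summed flank ratio of 11 TSSs in order along the chromosome. In the outermost 100 bp on the left both averages were 0.793 (TY-CFAP20) and 0.821 (WT) of the next 400 bp; without the outermost 200 bp the flank ratio of the members was 1.02 in place of 1.01. Promoters were read from hg38 at the authors' TSSs. Tools were pysam 0.24.0, matplotlib 3.10.9, pandas 2.3.3 and numpy 2.4.6 under Python 3.11.15, with steps tested on simulated data. With 1 value a group no test was possible, and the limma fit planned for replicates was not run.

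The members, lists, blocks of chromosome 19 and words searched were chosen with earlier results of these data known; CCAATCAG, CCAATGAG, the ACTACA word and the printed promoters were chosen after the sequences had been seen. Named genes were the 8 largest and 6 lowest differences, the 4 largest log2 ratios not already taken, the ends of each chromosome 19 block, the genes of the function list, the 4 highest and 2 lowest in BrU-seq, the 3 highest in DRIP and the antisense genes. Others named were chosen after their values were seen. Alternatives covered the window, scaling, member set, pseudocount and threshold.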

Additional observations from a re-analysis of the deposited data

How the results depend on the processing

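Each value was recomputed with 1 choice changed, and a value is given here where it changed sign or moved by over 1.5 times; the cause was not tested. No paired analysis was possible because the files hold 1 average per group, and for the same reason no sample could be left out. Of 126 alternatives for the summary values, 64 stayed within 1.5 times, 50 moved further and 12 changed sign. Leaving out TSSs with another listed TSS within 1 kb removed none and says nothing. Own-flank subtraction gives no count of folds.

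The median difference of the 139 ZNF genes came to 0.643 within 250 bp, 0.265 over 1000 bp each way and 0.275 with all TSSs scaled to the flanks, and it stayed positive in every alternative. Its ratio of means, 1.58, was 4.05 with own flanks subtracted. The count at least 1.5-fold higher, 42, became 16 within 1000 bp, 20 from 0 to 1000 bp, and 25 with all TSSs scaled to the flanks. Under local scaling it was 25 over 11 or 5 TSSs, 23 over 21 TSSs and 19 from TSSs that are not ZNF genes. It was 67 with 0.25 times and 1 with 4 times the pseudocount, and 75 with none and WT of at least 0.2. At 2-fold it was 2 and at 1.2-fold 84.

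The gap between the medians of ZNF genes and other TSSs, -0.151, rested on chromosome 19 at 51 to 59 Mb. It was -0.00634 without the ZNF genes of that stretch and -0.00775 without all its TSSs (both added after the data were seen), 0.00364 for ZNF genes outside chromosome 19, and -0.279 within chromosome 19. It was 0.00143 against the 10 nearest TSSs, 0.0276, 0.0286 and 0.00205 under local scaling over 11, 5 and 21 TSSs, -0.0694 under that from TSSs that are not ZNF genes, -0.0474 with own flanks subtracted and -0.0453 within 250 bp.

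The median of the 51 to 59 Mb block, -0.0874, was 0.100 in the 250 bp window, -0.142 in the 1000 bp window, -0.147 over the first 1000 bp downstream and -0.169 with all TSSs scaled to the flanks. It was 0.393, 0.459 and 0.339 under local scaling over 11, 5 and 21 TSSs, 0.186 under that from TSSs that are not ZNF genes, 0.202 with own flanks subtracted, and 0.0341 in the rest of the TY-CFAP20 average without its first part (added after the data were seen). In the order of the other blocks, 0 to 14, 14 to 27, 27 to 39 and 39 to 51 Mb, local scaling over 11 TSSs gave 0.380, 0.159, 0.279 and 0.477, over 21 TSSs 0.377, 0.171, 0.458 and 0.456, and from TSSs that are not ZNF genes 0.394, 0.133, 0.258 and 0.432. Over 5 TSSs the 14 to 27 Mb block had 0.188 and the 27 to 39 Mb block 0.411. The 0 to 14 Mb block had 0.397 within 1000 bp and 0.290 from 0 to 1000 bp. The 14 to 27 Mb block had 0.511 within 250 bp and 0.164 with all TSSs scaled. The 39 to 51 Mb block had 0.471 within 1000 bp, 0.387 from 0 to 1000 bp, 0.477 with own flanks subtracted and 0.231 in the first part of the average alone. Other TSSs had 0.535 at 14 to 27 Mb, 0.570 at 27 to 39 Mb and -0.141 at 51 to 59 Mb. With bounds at the arms only, the medians were 0.447 and 0.144. Of the 45 named genes, 33 kept 1 sign in every alternative. The other 12 were ZNF777, ZNF614, ZNF530, ZNF773, ZNF92, ZNF684, ZNF623, ZNF644, ZNF14, ZNF121, ZNF91 and ZNF274.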

Other observations

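The authors' deposited table also holds a ratio of CFAP20 over WT per TSS, whose assay no source used here names. Its median in that table was 0.935 over the 139 ZNF genes and 1.15 over the other TSSs with a value. By the authors' deposited table, values below 1 were held by 25 of the 29 ZNF genes at 51 to 59 Mb (median 0.653), and the medians were 1.04 for those of the rest of chromosome 19 and 1.04 for those outside it. The lowest value in the authors' deposited table was 0.251, for ZNF620, and the highest 2.59, for ZNF658. These 2 genes were chosen after their values were seen. The TY-CFAP20 difference was 0.693 at ZNF620 and 0.191 at ZNF658.

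The TY-CFAP20 average could be split by its steps into 2 parts, the first in steps of 0.0425 with 28.5% of the density and the rest in steps of 0.0667 and 0.100. Relative to the other TSSs, the ZNF genes at 51 to 59 Mb had flanks of 0.485 in the first part, 0.492 in the rest and 0.856 in WT. At their start sites the first part stood at 0.481 of the other TSSs and the rest at 0.591. All 29 were below the median of all TSSs in the first part, and 28 of 29 in the rest. Across the 139 genes the Spearman correlation between the parts at the TSS was 0.703, as a description. What the parts stand for was not given in the sources used here.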
